A study of Mus musculus with 4 samples.

Results

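The Hox genes are 39 homeobox transcription factor genes that lie in 4 clusters of the mouse genome, and all 39 had a row in the deposited table of 20793 gene rows. They were taken as every row whose name is Hox followed by the cluster letter a, b, c or d and a number. There were 11 rows in the Hoxa cluster, 10 in Hoxb and 9 in each of Hoxc and Hoxd. The number is the paralogue group, which gives a gene's place in its cluster from the 3′ end (group 1) to the 5′ end (group 13). Genes nearer the 3′ end are switched on earlier in the embryo and reach further towards the head. In the nervous system the low-numbered groups have their front limits between the segments of the hindbrain. The high-numbered groups have theirs mostly in the spinal cord, while forebrain and midbrain express next to none. The set of Hox RNAs in a piece of neural tissue is therefore often read for how far towards the tail it was patterned. Such a reading was not tested here.

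Brain RNA of mice at postnatal day 1 was sequenced in 4 libraries, 2 labelled WT (replicates A and B) and 2 labelled CIC KO (A and B). The knockout genotype is given as Nes-Cre;CIClox/lox, so that Cre under Nestin control, active in neural progenitors, removes a floxed part of Cic, the gene of the repressor capicua, and cells outside that lineage are not targeted. For the WT animals the genotype field gives Nes-Cre;CIC+/+, while the titles mark them as Cre-negative on a floxed background, and this conflict could not be settled. The sources used here state neither the strain nor the limits of the dissection, nor whether each library is a separate animal. Any p therefore measures only the spread between these libraries, which may be technical. Values are FPKM, which corrects the fragments of a gene for its length and for the size of the library, and are levels per length. Cic itself stood at 51.3 and 56.4 FPKM in WT A and WT B and at 19.1 and 22.2 FPKM in knockout A and knockout B.

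Knockout B stood apart from the other 3 libraries in genes other than the Hox genes too. Markers of midbrain and isthmus summed to 28.9 FPKM there and to 1.82 (WT A), 3.04 (WT B) and 2.72 FPKM (knockout A) elsewhere. All 10 genes of this list were highest in knockout B, beside 42.5% of all rows above 0 in a library. The list was chosen with earlier results of these data known. All 4 libraries carried forebrain RNA, with all 12 forebrain markers at 1 FPKM or more in each. The tests of the Hox genes are therefore given with and without knockout B.

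Hox RNA was present at 1 FPKM or more in knockout B and in none of the other 3 libraries. Summed over the 39 genes, Hox RNA came to 0.157 FPKM in WT A, 0.277 FPKM in WT B, 0.198 FPKM in knockout A and 31.3 FPKM in knockout B. WT A, WT B and knockout A were thus alike and low, and the knockout libraries lay on either side of WT B. In bulk tissue, fewer cells of a type and less RNA per cell cannot be told apart. In knockout B, 9 genes reached 1 FPKM, all of paralogue groups 2 to 5. In the other 3 libraries the highest Hox value was that of Hoxd8 each time (0.0939, 0.0525 and 0.0493 FPKM in WT A, WT B and knockout A), and 0 genes reached 0.1 FPKM. The pattern of at least 1 FPKM in knockout B and under 0.1 FPKM in each of the others was shared by 28 of all 20793 rows (0.135%), and 9 of these 28 were Hox genes, 23.1% of the Hox genes and 32.1% of the rows with that pattern. The same pattern with WT A, WT B or knockout A as the high library was met by 1, 1 and 0 rows, none of them a Hox gene. The pattern restates the Hox values above and was not a planned comparison, so these shares are descriptions and not tests. With knockout B as the high library, a row at 0.1 FPKM or more in any of the others could not meet it. No Hox gene was barred in this way, while the 0.135% counts all such rows.

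**Figure D1:**
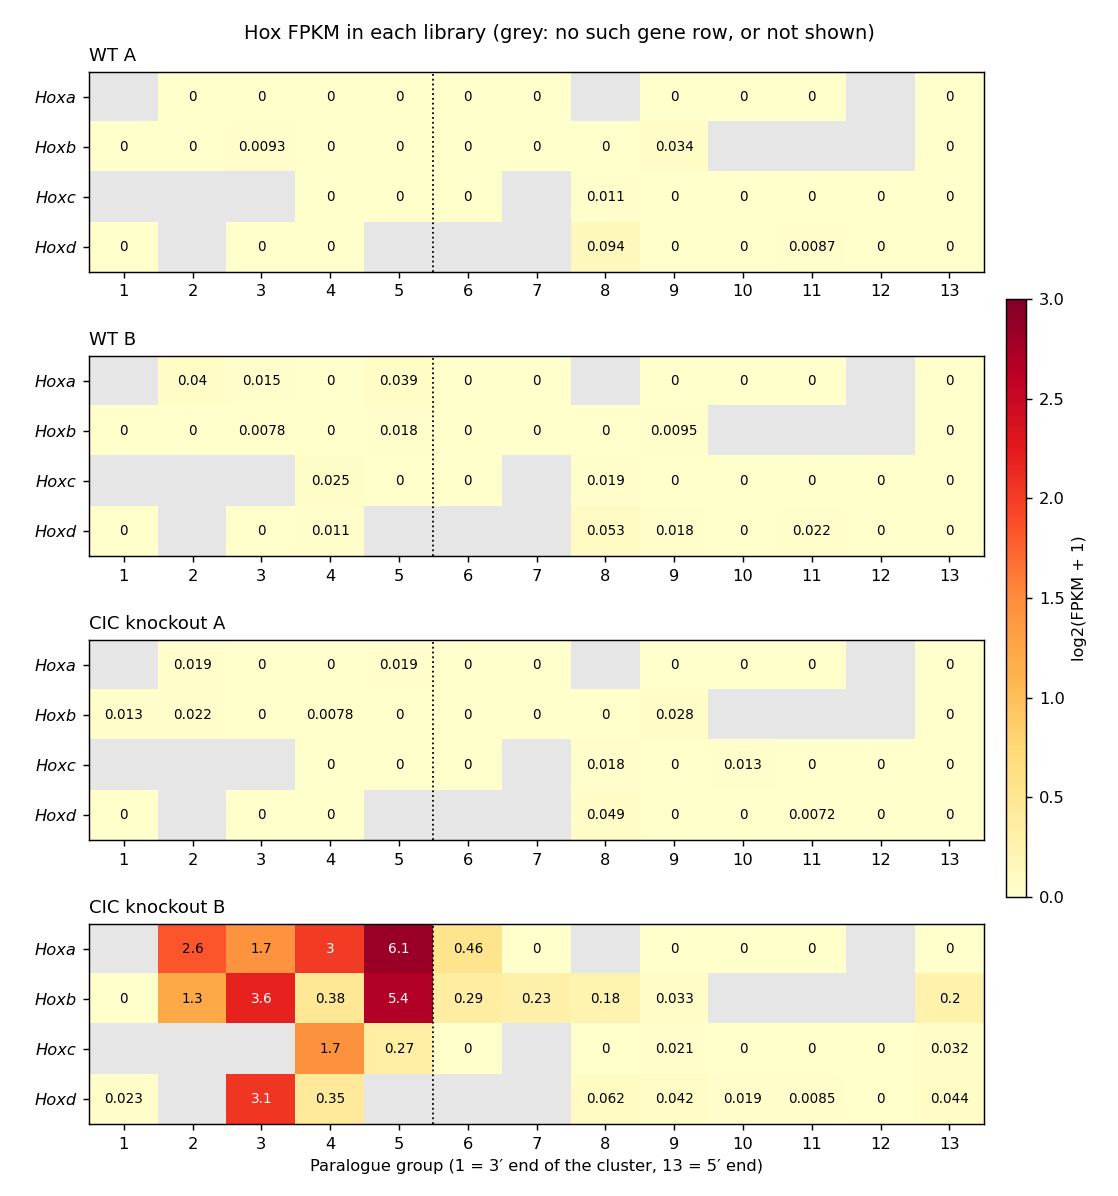
Each panel is 1 library, each row a Hox cluster and each column a paralogue group; the printed value is FPKM, the colour is log2(FPKM + 1), grey cells have no gene row or are not shown, and the dotted line parts groups 1 to 5 from groups 6 to 13. Knockout B holds the 9 values of 1 FPKM or more, all in groups 2 to 5, and the other 3 libraries stay under 0.1 FPKM.

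No gene of group 1 reached 1 FPKM in any library. Hoxd1 was listed at 0 in WT A, WT B and knockout A and at 0.0226 FPKM in knockout B. Hoxb1, the identity gene of the hindbrain segment that forms facial motor neurons, was listed at 0 in knockout B and in both WT libraries and at 0.0135 FPKM in knockout A. A listed 0 in this table can also be a failed estimate: the dystroglycan gene Dag1 had a 0 in WT A, and the clock gene Per1 one in knockout A, each at 10 FPKM or more in the other 3 libraries. A 0 is therefore given here as listed and not as absence.

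Both group 2 genes were seen. Hoxa2, the Hox gene with the most rostral limit in the hindbrain (mm9, chromosome 6, 52112510 to 52114830), had 0 and 0.0402 FPKM in WT A and WT B, 0.0194 FPKM in knockout A and 2.57 FPKM in knockout B. Hoxb2, which follows Hoxa2 closely in the hindbrain (chromosome 11, 96212946 to 96215328), was listed at 0 in both WT libraries and had 0.0219 FPKM in knockout A and 1.32 FPKM in knockout B. Only the last library rose above the trace level for either gene.

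The group 3 genes, known from caudal hindbrain and the cranial nerves it gives rise to, were all above 1 FPKM in knockout B. Hoxb3 (chromosome 11, 96184440 to 96209244) had 0.00931 and 0.00781 FPKM in WT A and WT B, 0 in knockout A and 3.55 FPKM in knockout B. Hoxd3 (chromosome 2, 74550050 to 74586328) was listed at 0 in WT A, WT B and knockout A and at 3.12 FPKM in knockout B. Hoxa3 (chromosome 6, 52119061 to 52163066) had 0, 0.0151 and 0 FPKM in those 3 libraries and 1.71 FPKM in knockout B. The deposited span of Hoxa3 covers Hoxa4, Hoxa5 and Hoxa6, and that of Hoxd3 overlaps Hoxd4, and how fragments were shared among these rows is not stated.

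Group 4, whose front limit lies near the back end of the hindbrain, was split. Hoxa4 (chromosome 6, 52139686 to 52141702) was listed at 0 in WT A, WT B and knockout A and had 3.03 FPKM in knockout B. Hoxc4 (chromosome 15, 102864826 to 102867283) had 0, 0.0248 and 0 FPKM in the first 3 and 1.73 FPKM in knockout B. Hoxb4 and Hoxd4 were lower in knockout B than either, at 0.376 and 0.347 FPKM. Hoxb4 was listed at 0 in both WT libraries and at 0.00778 FPKM in knockout A, and Hoxd4 at 0.0106 FPKM in WT B and at 0 in WT A and knockout A.

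The highest Hox levels were those of group 5. Hoxa5, a regulator of brainstem and cervical patterning and of lung development (chromosome 6, 52151753 to 52154586), had 0 and 0.0389 FPKM in WT A and WT B, 0.0189 FPKM in knockout A and 6.09 FPKM in knockout B. Hoxb5 (chromosome 11, 96164826 to 96167435) had 0 and 0.0184 FPKM in the WT libraries, 0 in knockout A and 5.38 FPKM in knockout B. Hoxc5 was far lower, listed at 0 in the first 3 libraries and at 0.270 FPKM in knockout B. Summed by paralogue group, knockout B held 3.88 FPKM in group 2, 8.38 in group 3, 5.49 in group 4 and 11.7 in group 5.

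From group 6 on, levels dropped. Group 6 summed to 0.752 FPKM in knockout B, group 7 to 0.234, group 8 to 0.245 and group 9 to 0.0957 FPKM. Groups 10, 11 and 12 came to 0.0194, 0.00845 and 0 FPKM. Hoxa6 (0.464 FPKM), Hoxb6 (0.288), Hoxb7 (0.234) and Hoxb8 (0.183) carried nearly all of groups 6 to 8 in knockout B, and each was listed at 0 in the other 3 libraries. Of the 24 genes of groups 6 to 13, 9 were listed at 0 in all 4 libraries: Hoxc6, Hoxa7, Hoxa9, Hoxa10, Hoxa11, Hoxc11, Hoxc12, Hoxd12 and Hoxa13. Groups 1 to 5 held 94.8% of the summed Hox FPKM of knockout B and groups 6 to 13 held 5.22%. Hoxb13, the most caudal gene of its cluster and known from prostate, hindgut and tail bud, broke the order with 0.203 FPKM in knockout B, above Hoxb9 (0.0326 FPKM), and was listed at 0 in the other libraries. Hoxc9 (0.0211 FPKM), Hoxd9 (0.0420), Hoxd10 (0.0194), Hoxc13 (0.0318) and Hoxd13 (0.0443) were traces in knockout B and listed at 0 elsewhere, except Hoxd9 at 0.0182 FPKM in WT B.

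Among neighbours both above 0, the point where the level fell most in knockout B was not the same in all 4 clusters. Falls are given as ratios between such neighbours. Falls to a listed 0 have no ratio and were left out, among them Hoxa6 (0.464 FPKM) to Hoxa7 and Hoxc5 (0.270 FPKM) to Hoxc6. Whether these were steeper than the falls below cannot be told from a listed 0. In Hoxa the level fell by a ratio of 13.1 from Hoxa5 to Hoxa6. In Hoxb it fell by a ratio of 18.7 from Hoxb5 to Hoxb6, after an earlier fall by a ratio of 9.45 from Hoxb3 to Hoxb4. In Hoxc the fall came earlier, a ratio of 6.40 from Hoxc4 to Hoxc5, and in Hoxd earlier still, a ratio of 8.97 from Hoxd3 to Hoxd4, whose deposited spans overlap. Later falls were not much smaller than that of Hoxc, with ratios of 5.63 from Hoxd4 to Hoxd8 and 5.62 from Hoxb8 to Hoxb9. No Hoxd row lies between Hoxd4 and Hoxd8, so a fall between those groups could not be placed there. The Hoxa and Hoxb clusters held 44.8% and 36.9% of the summed Hox FPKM of knockout B, Hoxd 11.7% and Hoxc 6.56%. These ratios come from 1 library, with no replicate of the pattern.

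**Figure D2:**
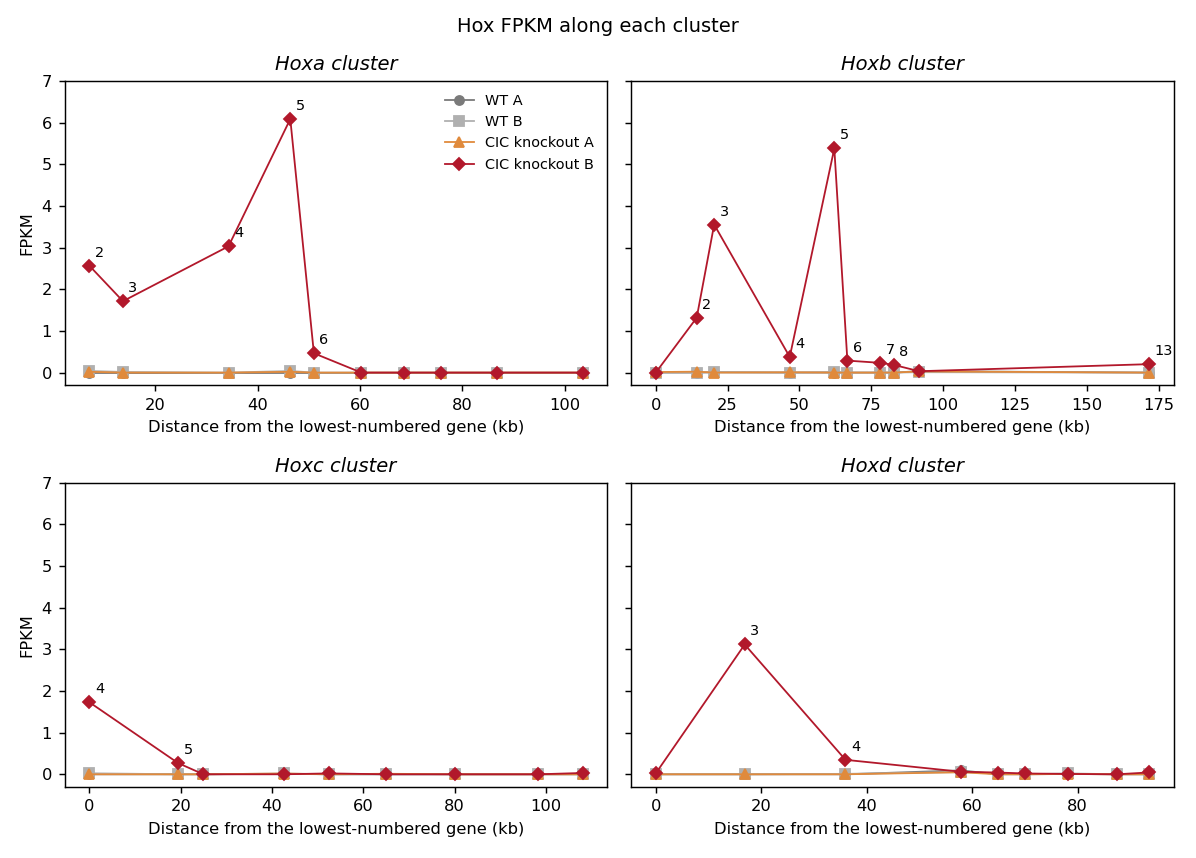
FPKM of each Hox gene (vertical axis) against its distance in kb from the lowest-numbered gene of the cluster (horizontal axis), 1 panel per cluster and 1 line per library; numbers beside points are paralogue groups of genes at 0.1 FPKM or more in knockout B, and 1 gene is not plotted. In knockout B the largest drop comes after group 5 in Hoxa and Hoxb, after group 4 in Hoxc and after group 3 in Hoxd. Drops are ranked by the ratio between neighbours both above 0, and falls to a listed 0 are not ranked. The other 3 libraries lie along the axis.

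The promoters of the 3 neighbours across which the Hoxa level fell are shown to set the sequences beside that drop. Each is the 250 bases before the annotated start, 5′ to 3′ on the gene's own (minus) strand, from RefSeq on GRCm38.p6, a later build than the mm9 of the table, and capitals mark CG pairs. They lie at chr6:52204588-52204837 (Hoxa5), chr6:52208673-52208922 (Hoxa6) and chr6:52218574-52218823 (Hoxa7).
Hoxa5: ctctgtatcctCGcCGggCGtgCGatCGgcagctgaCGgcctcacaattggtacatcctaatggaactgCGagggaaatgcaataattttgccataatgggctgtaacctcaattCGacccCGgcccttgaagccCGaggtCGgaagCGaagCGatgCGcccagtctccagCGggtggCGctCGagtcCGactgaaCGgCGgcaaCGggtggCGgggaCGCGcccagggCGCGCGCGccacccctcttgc
Hoxa6: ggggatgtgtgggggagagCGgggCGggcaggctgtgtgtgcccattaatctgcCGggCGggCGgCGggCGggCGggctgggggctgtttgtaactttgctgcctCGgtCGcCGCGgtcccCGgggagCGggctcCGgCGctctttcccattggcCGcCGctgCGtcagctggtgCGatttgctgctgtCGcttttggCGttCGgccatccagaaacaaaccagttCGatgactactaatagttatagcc
Hoxa7: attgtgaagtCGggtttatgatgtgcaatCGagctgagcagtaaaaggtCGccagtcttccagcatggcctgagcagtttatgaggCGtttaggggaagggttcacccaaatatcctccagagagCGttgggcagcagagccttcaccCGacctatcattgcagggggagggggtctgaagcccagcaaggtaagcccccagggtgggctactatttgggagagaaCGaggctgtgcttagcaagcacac

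Hoxa5, at 6.09 FPKM in knockout B, had 28 CG pairs in this window. Hoxa6, at 0.464 FPKM, had 24, and Hoxa7, listed at 0, had 7. The RefSeq table held 24 promoters of 22 Hox genes, with a median of 12.5 CG pairs (2 to 35) and a median GC content of 58.6%, against 6 pairs and 52.4% over all 32851 promoters. Hoxa13, listed at 0 in every library, had 35 CG pairs, and Hoxa2, at 2.57 FPKM in knockout B, had 6. Both strands were searched for the CIC octamer (TGAATGAA or TGAATGGA), which 2.07% of all promoters hold, and among the Hox promoters Hoxb4 alone held one. The Hoxb4 window (GRCm38.p6, chr11:96318017-96318266, plus strand) is shown with the octamer, read here on the opposite strand, in capitals.
Hoxb4: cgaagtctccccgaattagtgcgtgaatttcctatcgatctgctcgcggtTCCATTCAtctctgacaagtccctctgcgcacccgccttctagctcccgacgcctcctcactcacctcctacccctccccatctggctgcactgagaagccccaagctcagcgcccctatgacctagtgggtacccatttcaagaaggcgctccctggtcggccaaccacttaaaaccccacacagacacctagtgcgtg

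The Hox-Pbx core TGATNNAT, searched on both strands, was in 7.68% of all promoters and in 4 of the 24 Hox promoters, those of Hoxa2, Hoxb1, Hoxb8 and Hoxd11. Such matches of letters are descriptions and not sites. Of these 5 genes with a match, Hoxa2 alone reached 1 FPKM in any library. Among searched genes without a match Hoxa3, Hoxa5, Hoxc4 and Hoxd3 reached it, and most did not. Hoxb2, Hoxb3, Hoxa4 and Hoxb5 also reached it but had no promoter in the set and were not searched. No link between a match and the level was tested.

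Apart from Hoxd8, the low values in the other 3 libraries looked like a few fragments each. When each library was scaled by its depth relative to WT A, with factors of 1.20 (WT B), 1.22 (knockout A) and 1.03 (knockout B), 16 Hox genes had a value above 0 in WT A, WT B or knockout A. Of the 11 such values above the gene's lowest, 10 lay within 0.06 of a whole multiple of it. The exception was Hoxd8 in WT A, at 1.56 times its lowest. Hoxb3 in WT B (1.01), Hoxd8 in WT B (1.05) and Hoxd11 in knockout A (1.01) were nearly equal to the lowest value itself. The factors are the most common ratio between low values, so near-whole multiples are partly built in. If that lowest step is read as 1 fragment, which was not tested, Hoxa5 had 0 fragments in WT A, 2 in WT B, 1 in knockout A and about 273 in knockout B. On the same reading Hoxb5 had 0, 1, 0 and about 251, Hoxa2 had 0, 2, 1 and about 112, and Hoxb3 had 1, 1, 0 and about 394.

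A few Hox genes did not follow knockout B. Hoxd8, Hoxb9 and Hoxd11 were the 3 genes above 0 in all 4 libraries. Hoxd8 had 0.0939 and 0.0525 FPKM in WT A and WT B and 0.0493 and 0.0618 FPKM in knockout A and knockout B, so the groups overlapped and knockout B was not the highest. Hoxb9 had 0.0340 and 0.00952 FPKM in WT and 0.0284 and 0.0326 FPKM in the knockout, again overlapping. Hoxd11 had 0.00867 and 0.0218 FPKM in WT and 0.00719 and 0.00845 FPKM in the knockout, which in steps is 1, 3, 1 and 1. Hoxb1, Hoxc8 and Hoxc10 were also highest in a library other than knockout B, none above 0.0191 FPKM. In all, 24 of the 30 Hox genes above 0 somewhere were highest in knockout B. The share was 42.5% over the 17734 rows of the whole table above 0 in at least 1 library. Of the 24 Hox genes, 14 were above 0 in knockout B alone. These counted only through that library and could be highest nowhere else.

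The difference between knockout and WT was not called for any Hox gene. A fit of all rows with a mean of 1 FPKM or more in limma, on log2(FPKM + 1) and adjusted over 12703 rows, called 6 rows in all (0.0472%). Only Hoxa5 and Hoxb5 entered it, both through knockout B alone, and limma called 0 of these 2, with 0 of 2 at an unadjusted p under 0.05. Their log2 differences, knockout minus WT, were 1.40 ± 0.92 (SE; limma's adjusted p of 0.576) and 1.32 ± 0.88 (adjusted p of 0.578). With no filter limma called 0 of the 30 Hox genes that were above 0 anywhere, 0 of 30 at an unadjusted p under 0.05, and 3 of 17734 rows (0.0169%).

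The Hox difference rested wholly on knockout B. Without that library the log2 differences of Hoxa5 and Hoxb5 were -0.00047 and -0.013 (limma's adjusted p of 0.998 and 0.941). Without knockout A both were called higher, at 2.80 ± 0.07 and 2.66 ± 0.07 (SE; limma's adjusted p of 0.000822 for each), in a fit that takes its spread from the WT pair and gives the single knockout library the same spread. That fit called 17.9% of all rows tested higher. It compares 1 library with 2 and says nothing about the spread between knockout brains. Over all 39 genes the median log2 difference was 0.023, beside 0 over all 20793 rows and 0.021 over the 17734 rows above 0 in a library. By library, the Hox median lay 0 from the WT mean in knockout A and 0.046 from it in knockout B. In knockout B the median of all rows lay at 0 and that of rows above 0 in a library at 0.027.

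Summed Hox FPKM was 0.217 ± 0.0845 in WT and 15.8 ± 22.0 in the knockout (mean ± SD, n = 2 each), an SD above the mean, with nearly all of the knockout sum in 1 library. The two-sided exact permutation test gave p = 0.667, and 2 against 2 cannot go below 0.33. Without knockout B the difference of the sums was -0.0194 FPKM, and without knockout A it was 31.1 FPKM. Groups 1 to 5 summed to 0.0825 ± 0.104 and 14.9 ± 20.9 FPKM (exact permutation p = 0.667, n = 2 each) and groups 6 to 13 to 0.135 ± 0.0190 and 0.875 ± 1.07 FPKM (exact permutation p = 1, n = 2 each). The knockout values were both above both WT values for 2 of 39 Hox genes, Hoxb2 and Hoxb4, against 22.8% of all rows, and in each the value in knockout A was a trace (0.0219 and 0.00778 FPKM). Hoxd11 alone was lower in both, against 15.7% of all rows.

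Cofactors of Hox proteins were plentiful in every library, unlike the Hox genes. The TALE homeobox factors of the Pbx, Meis and Pknox families bind DNA together with Hox proteins and also act without them in the forebrain. All 9 were above 4 FPKM in each library and summed to 266 and 272 FPKM in WT A and WT B, 292 in knockout A and 242 in knockout B. In limma 0 of 9 passed the threshold, 4 of 9 had an unadjusted p under 0.05, and 7 of 9 were called without knockout A and 0 without knockout B. Over all 12703 rows tested, 10.2% had an unadjusted p under 0.05, 33.9% were called without knockout A and 0.213% without knockout B, and the list counts that follow are to be read beside these shares. Pbx3 had 32.4 and 32.0 FPKM in WT A and WT B and 51.0 and 45.4 FPKM in the knockout libraries, the largest difference of the list, with a log2 difference of 0.57 ± 0.10 (SE; limma's adjusted p of 0.417) and no overlap between groups. The Pbx3 difference was 0.48 without knockout A and 0.65 without knockout B (limma's adjusted p of 0.0134 and 0.0849). Meis1 had 5.27 FPKM in WT A and 4.56 in WT B, and 6.07 and 8.68 FPKM in the knockout libraries A and B (log2 difference 0.49 ± 0.18, SE; limma's adjusted p of 0.492). The Meis1 difference was 0.71 without knockout A and 0.26 without knockout B (limma's adjusted p of 0.0121 and 0.2999). Meis2, strong in striatal and other forebrain progenitors, stood at 81.1 (WT A), 81.3 (WT B), 86.7 (knockout A) and 53.7 FPKM (knockout B). Of the 9 genes, 4 were higher in each knockout library than in either WT library, against 22.8% of all rows, and 2 were lower, against 15.7% of all rows.

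**Figure D3:**
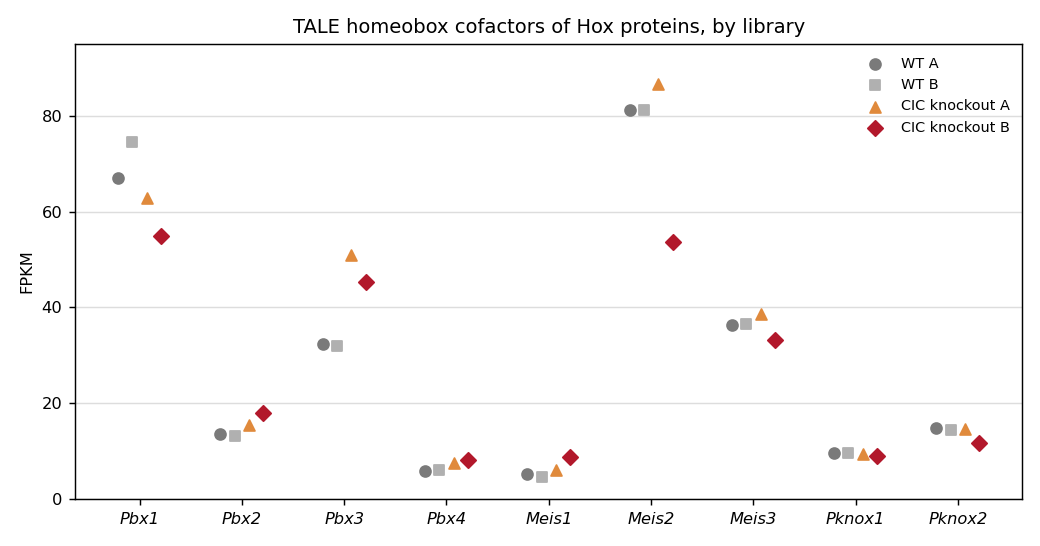
FPKM (vertical axis) of the 9 TALE cofactor genes in each of the 4 libraries, 1 point per library. All lie above 4 FPKM in every library; Pbx3 is higher in both knockout libraries (51.0 and 45.4 FPKM) than in WT (32.4 and 32.0), and Meis2 is lower in knockout B (53.7 FPKM) than in the rest.

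Genes that start or shape Hox expression in the embryo gave no calls either. Of 9 upstream regulators 3 entered the fit and 0 passed limma's threshold (2 at an unadjusted p under 0.05, 2 called without knockout A and 0 without knockout B); the caudal homeobox genes Cdx1, Cdx2 and Cdx4, which drive trunk Hox genes, were listed at 0 in all 4 libraries. Gbx2, which sets the midbrain-hindbrain border and is also used in thalamus, had 0.816 FPKM in WT A and 0.728 in WT B, against 1.90 and 7.66 FPKM in knockout A and knockout B (log2 difference 1.5 ± 0.53, SE; limma's adjusted p of 0.485). The Gbx2 difference was 2.29 without knockout A and 0.71 without knockout B (limma's adjusted p of 0.00115 and 0.0849). Of 18 retinoic acid pathway genes, whose signal opens the 3′ ends of the clusters, 15 entered the fit and 0 passed (2 at an unadjusted p under 0.05, 7 called without knockout A and 0 without knockout B). The receptor gene Rxrg had 25.4 FPKM in WT A and 24.1 in WT B, and 18.5 and 7.98 FPKM in the knockout libraries A and B, and the retinaldehyde dehydrogenase gene Aldh1a1 had 0.802 and 1.37, 1.48 and 3.99 FPKM in the same order. Without knockout A the log2 differences of Rxrg and Aldh1a1 were -1.52 and 1.27 (limma's adjusted p of 0.00262 and 0.012), and without knockout B they were -0.40 and 0.26 (limma's adjusted p of 0.133 and 0.505). The retinoic acid list had a median log2 difference of 0.12.

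Polycomb proteins keep Hox clusters silent and trithorax proteins keep them active. All 21 measured genes of the 2 systems entered the fit and 0 passed limma's threshold (0 at an unadjusted p under 0.05, 4 called without knockout A and 0 without knockout B), with a median log2 difference of 0.047. Bmi1, a Polycomb subunit, had 37.7 FPKM in WT A and 39.0 in WT B, against 34.2 and 30.1 FPKM in knockout A and knockout B (log2 difference -0.25 ± 0.11, SE; limma's adjusted p of 0.514). The Bmi1 difference was -0.34 without knockout A and -0.16 without knockout B (limma's adjusted p of 0.0304 and 0.365). Cbx7, another, had 3.02 and 3.59 FPKM in WT and 4.13 and 3.80 FPKM in the knockout libraries. Ezh2, the Polycomb methyltransferase, ranged from 19.2 to 23.1 FPKM over the 4 libraries.

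Markers of caudal brain moved with the Hox genes in knockout B. Of 12 hindbrain and brainstem neuron markers all 12 were highest in knockout B, beside 42.5% of rows above 0, 4 of them, Fev, Phox2a and Slc6a5 included, listed at 0 in the other 3 libraries, and the list summed to 16.3 and 15.6 FPKM in WT A and WT B and to 17.8 and 62.3 FPKM in knockout A and knockout B. Slc17a6, the vesicular glutamate transporter gene also used in thalamus, made up most of that sum in every library. Slc6a5, the glycine transporter of brainstem and spinal inhibitory neurons, had 4.30 FPKM in knockout B. Tph2, the serotonin-synthesis enzyme of raphe neurons, had 0.542 FPKM in WT A and 0.323 in WT B, against 0.369 and 1.14 FPKM in knockout A and knockout B. All 10 midbrain and isthmus markers were highest in knockout B, among them En2 (0.0138, 0.115, 0 and 5.27 FPKM in WT A, WT B, knockout A and knockout B) and Pou4f1 (0.0406, 0.0422, 0.0249 and 7.81 FPKM). In each of WT A, WT B and knockout A, 1 gene of each of these lists reached 1 FPKM. In knockout B, 9 of the 12 hindbrain and 8 of the 10 midbrain genes did. Their part in the Hox result was not tested.

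Forebrain markers summed to 621, 645, 498 and 348 FPKM in WT A, WT B, knockout A and knockout B, the order used from here on, with Nkx2-1, of ventral forebrain and hypothalamus, at 2.67, 3.14, 8.55 and 5.50 FPKM. Cerebellar markers summed to 53.0, 61.8, 89.9 and 184 FPKM; Zic1 had 9.51, 13.01, 28.6 and 61.8 FPKM and Zic4 2.33, 2.89, 8.16 and 12.8 FPKM. Motor neuron markers summed to 13.1, 12.2, 23.3 and 21.4 FPKM, with Mnx1, which defines spinal motor neurons, listed at 0 in all 4; Prph had 0.792, 0.935, 1.36 and 6.91 FPKM and Slc18a3 0.738, 0.753, 1.58 and 2.37 FPKM. Peripheral sensory ganglion markers summed to 1.05, 1.00, 2.74 and 17.1 FPKM, of which Sncg made 15.4 FPKM in knockout B. Avil (0.574 FPKM) and Prrxl1 (0.175 FPKM) were also highest there, Scn10a was lowest there (0.0521 FPKM) and Tlx2 was listed at 0 in all 4 libraries. Over all 15 lists 90 genes entered the fit, of which limma called 0, with 25 of 90 at an unadjusted p under 0.05 beside 10.2% of all rows. Without knockout A 51 of 90 were called, beside 33.9% of all rows, and without knockout B 2, among them Nkx2-1 (limma's adjusted p of 0.0482).

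Hox genes are also used in muscle, skeleton and connective tissue of the neck and trunk, so lists for these were set beside them. Muscle markers summed to 5.35, 5.12, 5.99 and 4.15 FPKM, with Tnnt1 at 0.407, 0.677, 0.637 and 0.985 FPKM and Tnni1 at 0.222, 0.106, 0.0781 and 0.0306 FPKM. Cartilage and bone markers summed to 3.29, 3.99, 4.49 and 8.53 FPKM, of which Col2a1 made 7.13 FPKM in knockout B; Runx2 had 0.411 FPKM there and 0.483 to 0.703 FPKM elsewhere. Skin markers summed to between 2.03 and 2.94 FPKM, nearly all of it Krt10, and Krt15 was highest in knockout B at 0.139 FPKM. Fibroblast and meninges markers summed to 62.7, 89.2, 104 and 121 FPKM, with Col1a1 at 7.02, 9.49, 12.2 and 20.1 FPKM and Col1a2 at 17.4, 26.4, 29.7 and 36.8 FPKM. Choroid plexus markers summed to 150, 491, 976 and 1046 FPKM, led by Ttr (144, 475, 951 and 1005 FPKM), and Otx2 had 0.838, 1.53, 2.75 and 11.2 FPKM. Among these lists the knockout A sum was above both WT sums for muscle, cartilage and bone, fibroblasts and meninges, and choroid plexus. For skin it was below both. Their part in the Hox result was not tested.

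**Figure D4:**
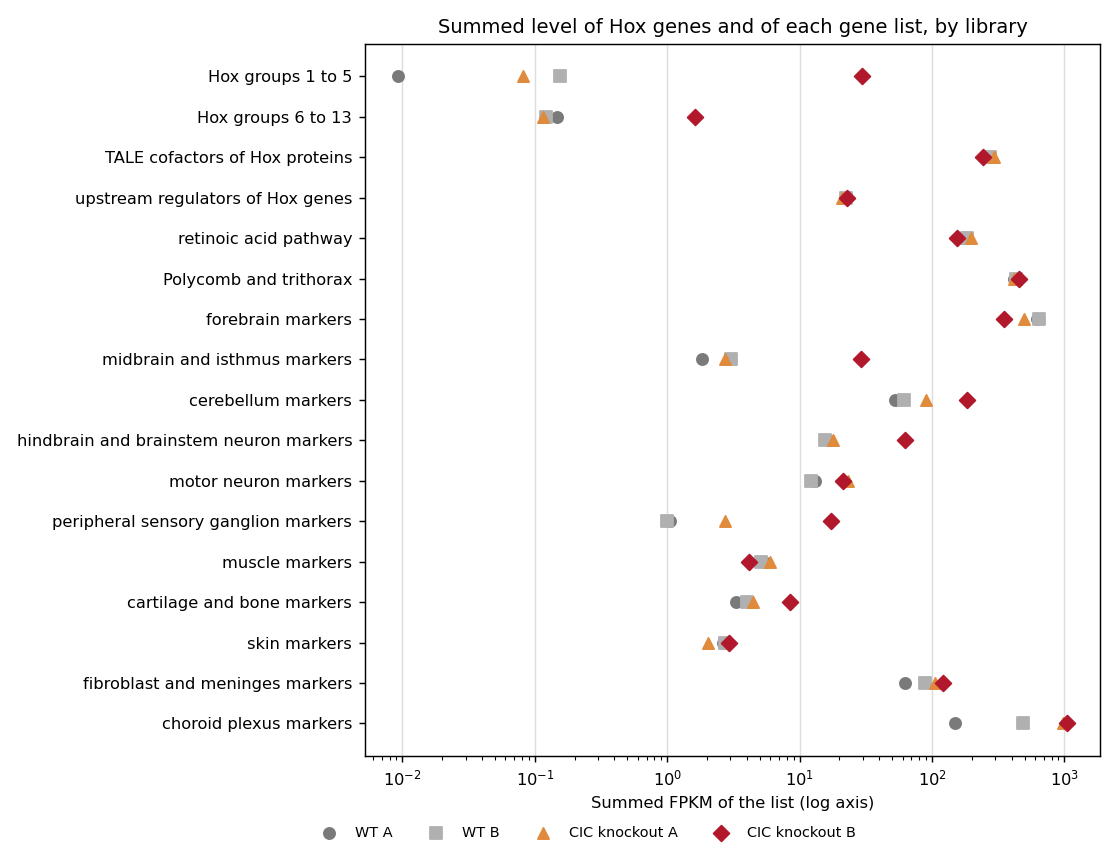
Summed FPKM (horizontal log axis) of Hox groups 1 to 5, Hox groups 6 to 13 and each gene list, 1 point per library. Hox groups 1 to 5 stand at 29.7 FPKM in knockout B and at 0.00931, 0.156 and 0.0814 FPKM in WT A, WT B and knockout A; of the 15 lists 10 are highest in knockout B, the midbrain and hindbrain lists among them, and the TALE, retinoic acid, forebrain and muscle lists are lowest there.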

How the data were processed

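The authors deposited 1 FPKM value per gene row and library (RNA-seq, 4 libraries of postnatal day 1 mouse brain). Per the submitters' processing notes the tools were bcl2fastq 2.17, cutadapt, TopHat2 2.0.11 and Cufflinks 2.1.1 with build mm9, in no stated role; the sources used here do not state strand use. The unit was read from the tools and values. Coordinates are mm9 with the start raised by 1. All 39 Hox rows had a GRCm38 namesake and 0 overlapped it there.

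Groups came from the description field. Values were tested as log2(FPKM + 1), which understates changes of low genes, in limma 3.58.1 (R 4.3.3; lmFit, eBayes) across all genes with a mean of 1 FPKM or more (12703), two-sided, adjusted by Benjamini-Hochberg, threshold 0.05. No-filter fits left out rows at 0 in all libraries. The fit was tested on simulated data. Total depth is unknown. Relative depth is the most common ratio to WT A of values under 0.15 FPKM. Named are Hox genes at 1 FPKM in a library, and of each of 15 lists the 2 genes with the largest difference, since none passed; any further names were picked with their values known, and some genes under this rule or these lists are not reported here. The members and lists were chosen with earlier results of these data known. Alternatives covered pseudocount, filter, scaling, trend, replicate block, level and leaving out each library.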

Additional observations from a re-analysis of the deposited data

How the results depend on the processing

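The Hox call count stayed at 0 with pseudocounts of 0.1 and 5, no filter, a mean of 5 FPKM (where 0 Hox genes were tested), rescaled libraries, the trend option and the replicate block, and ranged from 0 to 2 when a library was left out (2 without knockout A). Without a filter and without knockout A, or without knockout B, both added after seeing the data, limma called 0 Hox genes and 0 rows in all, with 18 and 0 of 30 Hox genes and 6633 and 2504 of all rows at an unadjusted p under 0.05. Over all rows limma called 6, and 3 with no filter, 7 with the replicate block and 4 to 4305 when a library was left out. The letters A and B pair no samples by the labels, and the WT and knockout differences between letters correlated at -0.013 over 12703 rows. Leaving out each library moved the knockout minus WT difference of summed Hox FPKM (15.5) between -0.0194 and 31.1, that of groups 1 to 5 (14.8) between -0.0011 and 29.6 and that of groups 6 to 13 (0.740) between -0.0183 and 1.499; each turned negative without knockout B. Genes higher in both knockout libraries numbered 2, 0 among those with a mean of 1 FPKM or more, and 3 to 24 with a library left out (24 without knockout A). The median log2 difference was 0.199 with a pseudocount of 0.1, and 1.36 or 0.95 over genes with a mean of 1 or of 0.1 FPKM or more, genes that enter through knockout B. At 0.1 FPKM 18 Hox genes were counted in knockout B and the most caudal group was 13 (Hoxb13); at 5 FPKM 2 genes were counted. Depth is unknown, so how little Hox RNA could have been seen in the other 3 libraries was not computed.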

Other observations

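Rows next to the clusters were chosen after their values were seen. No other gene row of the table lay inside a Hox cluster. Evx1 and Evx2, even-skipped homeobox genes of ventral interneurons at the 5′ ends of the Hoxa and Hoxd clusters, were listed at 0 in WT A, WT B and knockout A and had 0.341 and 0.430 FPKM in knockout B, although the nearest Hox genes, Hoxa13 and Hoxd13, stood at 0 and 0.0443 FPKM there. On the other side of Evx2, Lnp had 7.40 and 7.16 FPKM in WT and 6.68 and 7.64 FPKM in the knockout libraries, and Mtx2, past Hoxd1, had 43.6, 40.7, 44.0 and 45.2 FPKM, so these flanking genes did not stand out in knockout B.

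Of the 28 rows at 1 FPKM or more in knockout B and under 0.1 FPKM in the others, those that are not Hox genes included Pax2 (2.60 FPKM in knockout B), Pax3 (1.64), Pax5 (1.59), Pax7 (2.88) and Pax8 (2.07), paired-box factors of midbrain, isthmus and dorsal neural tube, and Dbx1 (1.1), a homeobox gene of hindbrain and spinal progenitors. Slc6a2, the noradrenaline transporter of locus coeruleus neurons, had 1.48 FPKM. Other rows of the set included Pou4f2 (4.72 FPKM in knockout B), Irx5 (3.53), C1ql4 (3.02), Insl3 (1.09), Defb35 (1.07), Pyy (1.07) and Bhlhe23 (1.01). These names were read from that set after it was seen and were not tested.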
